A study of Mus musculus with 4 samples.

Results

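The amino acid response and tRNA synthetase module held 35 genes of the 22221 that the array names with a symbol. They were 7 transcription factors, 4 stress effectors, 8 enzymes of amino acid synthesis and folate metabolism, 3 amino acid transporters and 13 cytosolic aminoacyl-tRNA synthetases. Members were taken by gene symbol, each by its probe set of highest mean intensity. All 35 were found, 34 of them with 1 probe set and Phgdh with 2. The cells were dendritic cells grown with GM-CSF from C57Bl/6 mouse bone marrow and held for 16 h in 1 of 4 conditions. These were hypoxia with poly I:C, normoxia with poly I:C, hypoxia in media, and normoxia in media. Hypoxia is given in the labels as 0.5%, with no gas named, and poly I:C, a synthetic double-stranded RNA that stands in for viral RNA, was used at 10 µg/ml. Each condition gave 1 total RNA sample for 1 Affymetrix Mouse Gene ST 1.0 array, and the labels do not say how many mice gave the marrow. The labels give total RNA for all 4 samples, but their labelling protocol also names nascent RNA without saying for which.

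When a cell runs short of amino acids, or meets double-stranded RNA or misfolded protein, kinases of the integrated stress response phosphorylate the initiation factor eIF2. General translation then slows while the transcription factor ATF4 is made more efficiently. ATF4, with C/EBP partners, binds composite C/EBP-ATF response elements in genes for amino acid import, amino acid synthesis and tRNA charging, and in genes for stress regulators such as CHOP (Ddit3) and TRIB3. Some of these genes also answer to other pathways: tryptophanyl-tRNA synthetase (Wars) is interferon-induced, and Ddit4 is a known target of both ATF4 and hypoxia-inducible factor.

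No condition was replicated, which leaves every difference without an error or a p-value. Levels are RMA intensities on a linear scale, and differences are log2 ratios of 2 arrays. "Higher" and "lower" as counts mean at least 2-fold. Between 67.7% and 68.7% of probe sets on each array read below 10, and 6 members, Atf5, Chac1, Psph, Shmt1, Shmt2 and Slc7a5, did so on every array, at 3.30 to 9.96. Counts were therefore taken over the 14 members with a reading of 64 or more on any array (the floor), and then over all 35. Of the 14, 5 reached the floor on a single array: Nupr1 in hypoxia with poly I:C, Asns, Mthfd2 and Gars in normoxia with poly I:C, and Slc1a5 in normoxia in media. Atf4 and Wars reached the floor only on the 2 poly I:C arrays, Mthfd1l only on the 2 hypoxic arrays and Eprs only on the 2 media arrays. A member that passed in such a way had to read higher there, so the counts are a description. Atf4 (65.8) and Asns (66.5) lay just above the floor, and Iars (60.3) and Trib3 (55.6) just below it. The difference of differences, the hypoxia effect with poly I:C minus that in media, had a robust SD of 0.45 over the 2715 genes above the floor.

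The dendritic cell label was checked against marker lists. Of 7 dendritic cell markers 5 passed the floor, with Itgax at 268 to 615 and Cd74 at 772 to 1128, while Zbtb46 and Flt3 stayed at or below 6.21. The list summed to 4243 in hypoxia with poly I:C, 3160 in normoxia with poly I:C, 4006 in hypoxia in media and 3217 in normoxia in media. Its markers went different ways in hypoxia. With poly I:C and in media, the hypoxia differences were 0.78 and 0.72 for H2-Ab1, 0.41 and 0.63 for H2-Aa, and 0.55 and 0.14 for Cd74. They were -0.29 and -0.53 for Itgax and -1.26 and -0.59 for Ccr7. All 6 macrophage markers passed the floor. Their summed intensity was 4693 in hypoxia with poly I:C, 4447 in normoxia with poly I:C, 5477 in hypoxia in media and 5625 in normoxia in media. Lyz2, at 2856 to 3543, made up most of that sum. Mrc1 read 4.81 and 11.5 with poly I:C in hypoxia and normoxia, against 50.1 and 131 in media (-3.38 and -3.51), and Csf1r and Adgre1 were at -0.77 to -0.97 for poly I:C. The poly I:C differences in hypoxia and normoxia were -1.43 and -0.36 for Mertk, -0.11 and -0.31 for Lyz2, and 0.01 and 0.27 for Cd68. Of 7 markers of neutrophils and their precursors only Mmp8 passed, and the list summed to 117, 133, 602 and 462 in the same order. B cell, T cell, natural killer cell, mast cell, erythroid and stromal markers read 8.63 or less. Of 3 plasmacytoid markers the interferon-induced Bst2 passed, at 611 and 550.1 with poly I:C against 27.99 and 36.7 in media. Tcf4 read 29.2 and 19.1 with poly I:C in hypoxia and normoxia, against 18.7 and 14.6 in media, and Siglech stayed at or below 3.36. The part of these shifts in the values given here was not tested. In bulk RNA fewer cells of a type cannot be told apart from less RNA per cell.

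RefSeq promoter windows (build GRCm38.p6, 250 bases before to 50 after a start site) were found for 28 members. Slc7a5, Slc1a5, Cars, Lars, Nars, Vars and Wars had no entry. The C/EBP-ATF element was searched as TGATGNAA on both strands. It stood in the windows of 10 of the 28 members (35.7%), against 4.51% of the 27025 genes with a window. Many members are known ATF4 targets, so the share is a description of a chosen list. Matches of 9 of these genes are printed below with 10 bases on each side, because they are the known docking sequence of ATF4 and its partners. Each is turned so that the match, in capitals, reads TGATGNAA.
Asns, chr6:7693215-7693242, minus strand: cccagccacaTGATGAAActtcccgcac
Nupr1, chr7:126625563-126625590, plus strand: aagccctgtcTGATGCAAtctggccctt
Trib3, chr2:152344029-152344056, plus strand: cccgcccggcTGATGTAAacctgagcta
Atf3, chr1:191183426-191183453, plus strand: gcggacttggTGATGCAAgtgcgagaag
Chac1, chr2:119351039-119351066, minus strand: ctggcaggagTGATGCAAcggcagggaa
Iars, chr13:49682127-49682154, minus strand: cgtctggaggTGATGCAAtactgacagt
Gars, chr6:55037961-55037988, minus strand: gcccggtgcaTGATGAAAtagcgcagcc
Tars, chr15:11399656-11399683, plus strand: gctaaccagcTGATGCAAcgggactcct
Yars, chr4:129189896-129189923, plus strand: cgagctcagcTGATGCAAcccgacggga
In 6 of the genes printed, Atf3, Chac1, Iars, Nupr1, Tars and Yars, the octamer read TGATGCAA. Asns and Gars had TGATGAAA, and Trib3 had TGATGTAA. Whole windows follow in the direction of transcription for Asns and Nupr1, whose transcripts had the largest poly I:C differences of the module in normoxia (Asns) and hypoxia (Nupr1). Capitals again mark the element, which in the Nupr1 window lies on the opposite strand and so reads TTGCATCA.
Asns, chr6:7693160-7693459, minus strand: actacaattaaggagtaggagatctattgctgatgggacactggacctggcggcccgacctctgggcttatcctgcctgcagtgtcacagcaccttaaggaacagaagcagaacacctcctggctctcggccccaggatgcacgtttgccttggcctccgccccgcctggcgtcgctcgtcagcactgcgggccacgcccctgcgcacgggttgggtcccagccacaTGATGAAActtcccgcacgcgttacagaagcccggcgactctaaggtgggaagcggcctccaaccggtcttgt
Nupr1, chr7:126625421-126625720, minus strand: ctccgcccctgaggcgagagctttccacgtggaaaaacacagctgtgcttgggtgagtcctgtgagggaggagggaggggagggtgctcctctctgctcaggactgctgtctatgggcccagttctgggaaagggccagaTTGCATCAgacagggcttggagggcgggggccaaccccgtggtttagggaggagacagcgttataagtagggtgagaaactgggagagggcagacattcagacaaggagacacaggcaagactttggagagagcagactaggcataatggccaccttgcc
The Asns match began 23 bases before the start site and the Nupr1 match 110 bases before it. The hypoxia response element core ACGTG, on either strand and so counted on both in CACGTG, stood in the windows of 12 of 28 members (42.9%), among them Ddit4, Ddit3, Mthfd1l, Nupr1, Asns and Iars, against 21.8% of genes. The interferon-stimulated response element was in none of the 28 windows, against 3.99% of genes. A match is a string in a window, and its use in these cells was not measured.

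**Figure D1:**
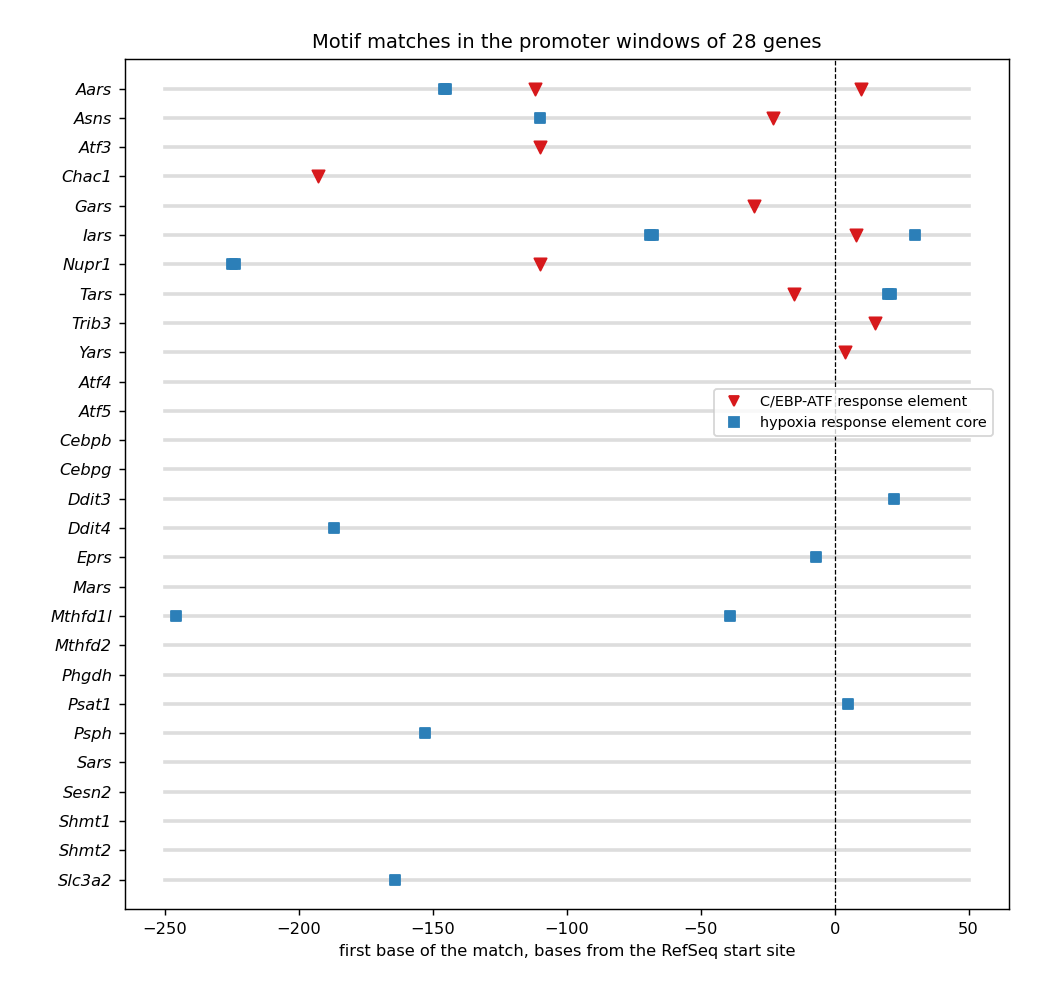
Positions of motif matches in the promoter windows of 28 genes, in bases from the RefSeq start site (x axis, dashed line at the start site); triangles are the C/EBP-ATF element and squares the hypoxia response element core. The 10 genes with a C/EBP-ATF match stand at the top, with matches from 193 bases before to 15 bases after the start site.

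Across the 4 comparisons the module did not move as a block. Poly I:C went with higher Asns, Nupr1, Ddit3 and Trib3 in both oxygen levels and with lower Slc1a5, while most synthetases stayed within 2-fold. Hypoxia went with higher Mthfd1l and Trib3 with or without poly I:C. Ddit4, Trib3 and Nupr1 stood more than 2-fold above every other array when hypoxia and poly I:C were combined. With an offset of 16 before log2, which damps dim genes, poly I:C differences were short of 2-fold for Ddit3 (0.85), Trib3 (0.45) and Nupr1 (0.84) in normoxia, for Asns (0.89) and Ddit4 (0.96) in hypoxia, and for Slc1a5 in hypoxia (-0.84) and normoxia (-0.85). Also short of it then for poly I:C were Atf4 (0.82) and Slc3a2 (0.97) in normoxia, and Mthfd2 (0.98) and Eprs in hypoxia. So were the hypoxia differences of Trib3 (0.51), Sesn2 (0.57) and Mthfd2 (-0.99) in media, and of Asns (-0.81), Phgdh (-0.46), Iars and Lars with poly I:C. The negative difference of differences of Iars was short of it as well. Reference centring put Slc1a5 at -0.68 in hypoxia and -0.98 in normoxia for poly I:C, and Asns at -0.98 for hypoxia with poly I:C.

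**Figure D2:**
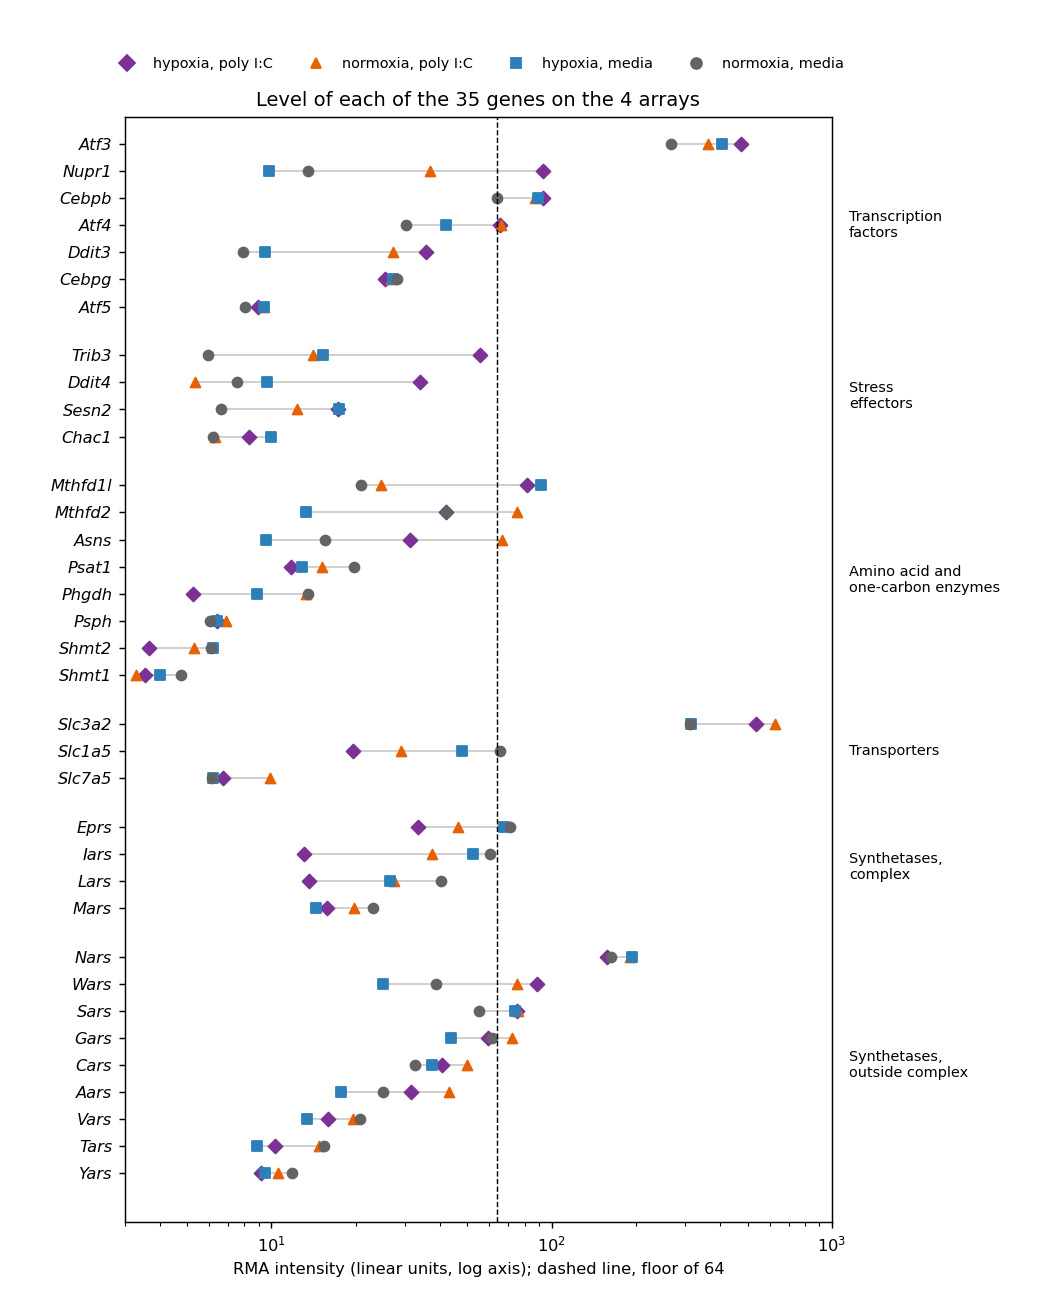
RMA intensity (x axis, linear units on a log scale) of each of the 35 genes on the 4 arrays, 1 point per array, grouped by role; the dashed line is the floor of 64. Nupr1, Trib3 and Ddit4 have their hypoxia with poly I:C point far to the right of the other arrays, at 93.1, 55.6 and 33.8.

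For poly I:C against media in normoxia, 4 of the 14 members above the floor were higher (28.6%), which were Atf4, Nupr1, Asns and Slc3a2, and 1 was lower (7.14%), which was Slc1a5. Of all 2715 genes above the floor 14.8% were higher and 7.18% lower. Over all 35 members 6 were higher (17.1%), the 4 named and Ddit3 and Trib3, and 1 lower (2.86%), against 2.89% and 2.87% of the 22221 genes. Most of those genes are dim, so that background is not matched to the members in level. The median of the 14 members was 0.46, and that of all genes above the floor was -0.03.

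For poly I:C against media in hypoxia, Nupr1, Asns, Mthfd2 and Wars were higher, 4 of 14 (28.6%), and Slc1a5 and Eprs lower, 2 of 14 (14.3%). The shares over all genes were 16.5% and 9.61%. Without a floor 7 of 35 members were higher (20%), with Ddit3, Ddit4 and Trib3 added, and 3 lower (8.57%), with Iars added, against 3.47% and 3.02% of genes. The member median was 0.33 and the median of all genes above the floor -0.06. This comparison shares no array with the one in normoxia. The difference had the same sign in both for 12 of the 14 members, all but Mthfd1l and Nars, and for 83.2% of genes above the floor.

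For hypoxia against normoxia in media, Mthfd1l was higher and Mthfd2 lower, 1 of 14 (7.14%) in each direction, against 5.34% and 6.78% of genes, shares that the members hardly exceeded. Without a floor 3 of 35 were higher (8.57%), with Trib3 and Sesn2 added, and 1 lower (2.86%), against 1.46% and 2.22%. The member median was -0.03 and that of all genes above the floor -0.10. With poly I:C present, hypoxia went with higher Nupr1 and Mthfd1l, 2 of 14 (14.3%), and lower Asns, 1 of 14 (7.14%), against 3.98% and 3.68% of genes. Without a floor 4 of 35 were higher (11.4%), with Ddit4 and Trib3 added, and 4 lower (11.4%), with Iars, Lars and Phgdh added, against 1.19% and 1.22%. The 14 members had a median of -0.12 there, and all genes above the floor had -0.05. These hypoxia comparisons share no array, and 8 of the 14 members had the same sign in both, against 69.4% of genes above the floor.

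The difference of differences reached 2-fold in the positive direction for Nupr1, 1 of 14 members (7.14%), and in the negative direction for none, against 5.89% and 2.91% of genes. Without a floor Ddit4 joined Nupr1, 2 of 35 (5.71%), and Iars was negative, 1 of 35 (2.86%), against 2.15% and 1.28%. It is formed from all 4 arrays, so it contains the noise of each.

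**Figure D3:**
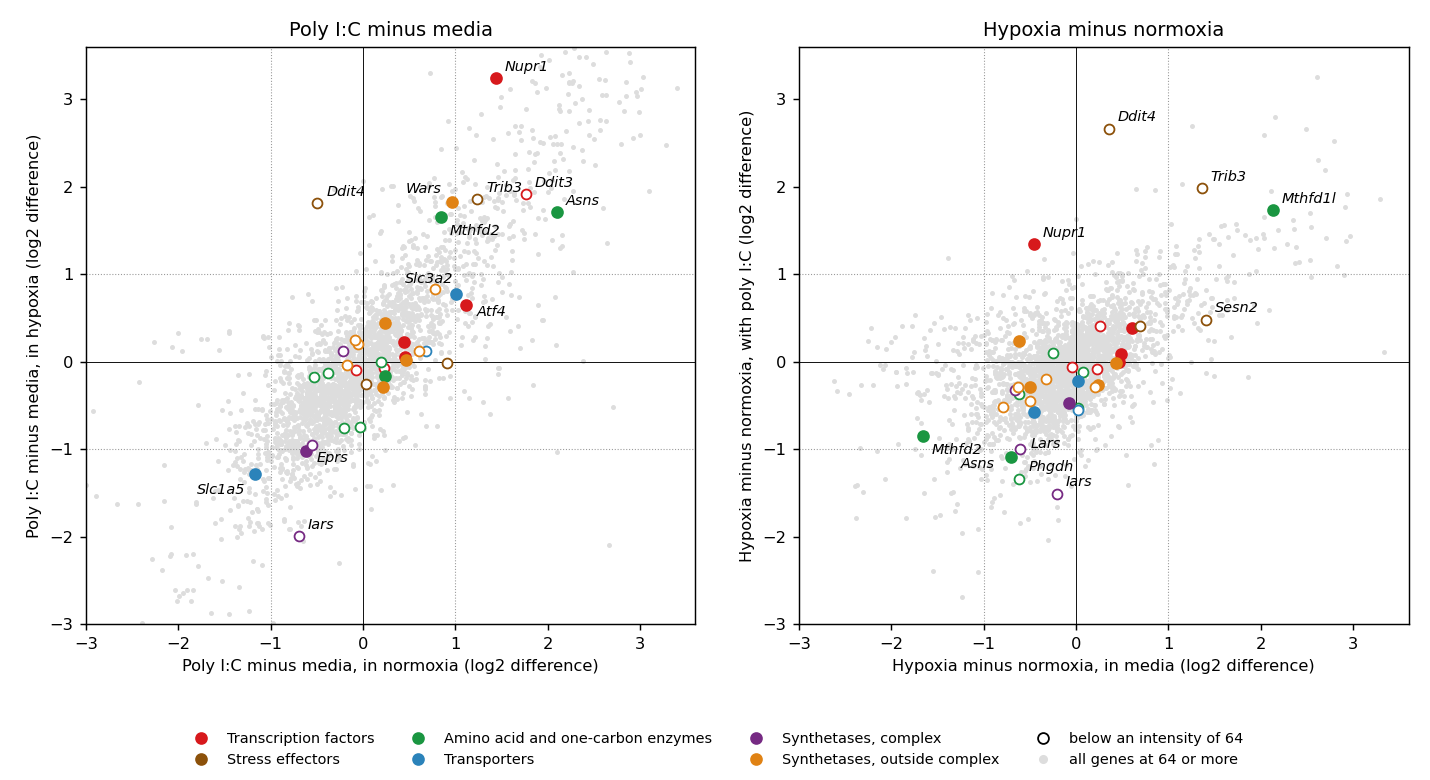
Log2 differences of the members in comparisons that share no array, poly I:C minus media (left; x axis normoxia, y axis hypoxia) and hypoxia minus normoxia (right; x axis media, y axis with poly I:C). Filled points are members above the floor, open points members below it, and grey points all 2715 genes above it (those beyond the axes are not drawn); dotted lines mark 2-fold, and members past it in either comparison are named. Ddit4 and Nupr1 lie high and near or left of the vertical zero line in the right panel, at 2.66 and 1.34 with poly I:C against 0.35 and -0.46 in media.

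Among the transcription factors, Atf4, the central factor of the response, read 65.7 in hypoxia with poly I:C, 65.8 in normoxia with poly I:C, 41.8 in hypoxia in media and 30.3 in normoxia in media. Its level was nearly equal on both poly I:C arrays and lower on both media arrays, and the poly I:C difference was 0.65 in hypoxia and 1.12 in normoxia. With the offset of 16 the difference in normoxia was 0.82, while reference centring gave 1.26 in hypoxia and 1.31 in normoxia. ATF4 is controlled mainly at translation, which these arrays do not read. Ddit3, which encodes CHOP, a factor linked to cell death under lasting stress, read 35.8 and 27.1 with poly I:C in hypoxia and normoxia, against 9.51 and 7.95 in media. The poly I:C arrays did not overlap the media arrays, and the differences were 1.91 in hypoxia and 1.77 in normoxia. The hypoxia difference of Ddit3 was small beside these, at 0.40 with poly I:C and 0.26 in media.

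Nupr1, a small chromatin-associated stress protein, read 93.1 in hypoxia with poly I:C, 36.7 in normoxia with poly I:C, 9.84 in hypoxia in media and 13.5 in normoxia in media. The combined condition stood 2.53-fold above the next array. With poly I:C the difference was 3.24 in hypoxia, or 9.46-fold, and 1.44 in normoxia, or 2.72-fold. Hypoxia gave 1.34 with poly I:C and -0.46 in media, a difference of differences of 1.80.

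Atf3, a repressor of inflammatory genes that is induced by many stresses, read 473 in hypoxia with poly I:C, 361 in normoxia with poly I:C, 405 in hypoxia in media and 266 in normoxia in media. Its 4 differences, 0.22 and 0.44 with poly I:C in hypoxia and normoxia and 0.39 and 0.61 in hypoxia with and without poly I:C, were all short of 2-fold. Cebpb, which encodes a C/EBP factor of myeloid cells, read 92.8, 87.5, 89.4 and 63.8 in the same order of conditions, so its media array in normoxia was the low one. Cebpg, a dimer partner of ATF4, was nearly flat at 25.5 to 28.1. Atf5, itself an ATF4 target, was dim at 8.06 to 9.45.

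The 4 stress effectors were below the floor on every array, and all but Chac1 had readings more than 2-fold apart. Trib3, a pseudokinase that binds ATF4 and dampens its activity, read 55.6 in hypoxia with poly I:C, 14.1 in normoxia with poly I:C, 15.3 in hypoxia in media and 5.96 in normoxia in media. Either treatment alone went with a Trib3 reading more than 2-fold above the untreated array, and the array of the combination was the highest by far. The poly I:C difference was 1.86 in hypoxia and 1.24 in normoxia, and the hypoxia difference 1.98 with poly I:C and 1.36 in media. On the log2 scale the difference of differences was 0.62.

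Ddit4, whose product REDD1 restrains the growth kinase mTORC1, read 33.8 in hypoxia with poly I:C, 5.34 in normoxia with poly I:C, 9.61 in hypoxia in media and 7.52 in normoxia in media. One array was high and the other 3 were below 10. Hypoxia gave 2.66 with poly I:C and 0.35 in media, and poly I:C gave 1.82 in hypoxia and -0.50 in normoxia. The difference of differences, 2.31, was the largest of the module. Sesn2, a leucine-sensing inhibitor of mTORC1, read 17.3 in hypoxia with poly I:C, 12.4 in normoxia with poly I:C, 17.4 in hypoxia in media and 6.59 in normoxia in media. The untreated array was the low one for Sesn2, and the hypoxia difference was 0.48 with poly I:C and 1.40 in media. Chac1, a glutathione-degrading enzyme, stayed at 6.18 to 9.96.

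Enzymes of amino acid synthesis and of mitochondrial folate metabolism went different ways. Asns, which makes asparagine from aspartate and glutamine and is a classic ATF4 target, read 31.2 in hypoxia with poly I:C, 66.5 in normoxia with poly I:C, 9.55 in hypoxia in media and 15.5 in normoxia in media. Both poly I:C arrays were above both media arrays, with differences of 1.71 in hypoxia and 2.10 in normoxia. At either stimulation the hypoxic array was the lower one, by -1.09 with poly I:C and -0.70 in media.

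Mthfd2 and Mthfd1l encode enzymes of the mitochondrial folate pathway, a dehydrogenase and a formate-releasing synthetase. Mthfd2 read 41.8 in hypoxia with poly I:C, 75.2 in normoxia with poly I:C, 13.3 in hypoxia in media and 42.0 in normoxia in media. It was lower in hypoxia in media (-1.66) and at -0.85 in hypoxia with poly I:C. With poly I:C it was 3.15-fold higher at low oxygen (1.66), with 0.84 in normoxia. Mthfd1l read 81.7 in hypoxia with poly I:C and 24.6 in normoxia with poly I:C, and 91.5 in hypoxia in media against 20.9 in normoxia in media. The hypoxic arrays of Mthfd1l were far above the normoxic ones, by 1.73 with poly I:C and 2.13 in media, and poly I:C made little difference, at -0.16 in hypoxia and 0.23 in normoxia. So these pathway neighbours had opposite signs for hypoxia in both settings.

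The serine synthesis genes were dim. Phgdh, the first enzyme of the path, read 5.26 in hypoxia with poly I:C, 13.3 in normoxia with poly I:C, 8.86 in hypoxia in media and 13.6 in normoxia in media. Its hypoxia difference was -1.34 with poly I:C and -0.61 in media, and with its 2 probe sets averaged the first became -0.81. Psat1, the next enzyme, read 11.7, 15.1, 12.9 and 19.7 in the same order of conditions, highest in normoxia in media. Psph, the last enzyme, and the serine hydroxymethyltransferase genes Shmt1 and Shmt2 were at 6.06 to 6.92, 3.30 to 4.75 and 3.66 to 6.20, levels at which differences rest on signal near background.

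Among the transporters, Slc3a2 encodes the CD98 heavy chain that carries several amino acid exchangers to the membrane. It read 538 and 625 with poly I:C in hypoxia and normoxia, against 315 and 311 in media. The poly I:C arrays were above the media arrays at both oxygen levels, by 0.77 in hypoxia and 1.01 in normoxia, which is only just 2-fold, and the hypoxia differences were -0.22 and 0.02. Slc7a5, the light chain LAT1 that pairs with it, was dim at 6.13 to 9.86. Slc1a5, the glutamine transporter ASCT2, read 19.5 and 29.0 with poly I:C in hypoxia and normoxia, against 47.7 and 65.4 in media. Its poly I:C differences of -1.29 in hypoxia and -1.17 in normoxia went the other way from those of Slc3a2.

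With poly I:C in hypoxia Wars was higher and Eprs and Iars lower, 1 and 2 of the 13 member synthetases. The shares of all genes were 3.47% and 3.02% without a floor. Of genes with a reading of 16 or more, closer to these members in level, 9.87% were higher and 8.10% lower. Eprs was short of 2-fold under cyclic loess (-0.89) and reference centring (-0.41). In normoxia no synthetase reached 2-fold, where 2.89% of all genes were higher and 2.87% lower, so a count of 0 of 13 is near that background. At 16 or more the shares were 8.42% and 6.82%. Wars, the tryptophanyl-tRNA synthetase, read 88.9 in hypoxia with poly I:C, 75.3 in normoxia with poly I:C, 25.04 in hypoxia in media and 38.5 in normoxia in media. Both poly I:C arrays lay above both media arrays, with differences of 1.83 in hypoxia and 0.97 in normoxia, which is just short of 2-fold and passed it under cyclic loess (1.09) and reference centring (1.16). Hypoxia gave 0.24 with poly I:C and -0.62 in media.

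Eprs, Iars, Lars and Mars encode synthetases of the multi-tRNA synthetase complex, a cytosolic assembly of several synthetases and scaffold proteins. Sorting by complex was chosen after the values were seen. Iars, for isoleucine, read 13.1 in hypoxia with poly I:C, 37.3 in normoxia with poly I:C, 52.3 in hypoxia in media and 60.3 in normoxia in media. The combined condition was the low one, and the poly I:C difference was -1.996 in hypoxia and -0.69 in normoxia. Eprs, the joint glutamyl- and prolyl-tRNA synthetase, read 33.3, 46.4, 67.4 and 71.0 in the same order of conditions. Its poly I:C differences were -1.02 in hypoxia and -0.62 in normoxia, with the lowest reading again in the combined condition. Lars, for leucine, read 13.7, 27.4, 26.4 and 40.2, with -0.95 and -0.55 for poly I:C and -1.003 and -0.60 for hypoxia with and without poly I:C, the first of them -0.97 under cyclic loess and -0.89 under reference centring. Mars, for methionine, stayed within 14.5 to 23.0.

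The 8 members outside the complex other than Wars stayed within 2-fold in the 4 comparisons, as did most genes. Under reference centring Aars (1.44) and Gars (1.05) passed it for poly I:C in hypoxia, and Tars (-1.09) for hypoxia in media. Aars, for alanine, had the largest poly I:C differences of these, 0.83 in hypoxia and 0.79 in normoxia, from readings of 31.4 and 43.0 against 17.7 and 24.9 in media. Nars (158 to 193), Sars (54.9 to 76.0), Gars (43.6 to 72.4) and Cars (32.6 to 49.7) were moderately bright and within 0.61 of no difference in every comparison. Vars (13.5 to 20.8), Tars (8.92 to 15.4) and Yars (9.21 to 11.8) were dimmer. With poly I:C present, hypoxia differences were below 0 for 12 of the 13 synthetases, all but Wars, and for 11 under cyclic loess or reference centring. Without a floor 49.8% of all genes were above 0 there, and 43.9% of those with a reading of 16 or more on any array. In media 10 of 13 were below 0, or 12 under reference centring. Without centring 53.1% of all genes were above 0 there with no floor, and 43.4% at 16 or more. The synthetase median was -0.29 with poly I:C and -0.49 in media, and -0.18 and -0.80 under reference centring. That centring put the median of all genes above the floor at 0.06 and -0.40.

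**Figure D4:**
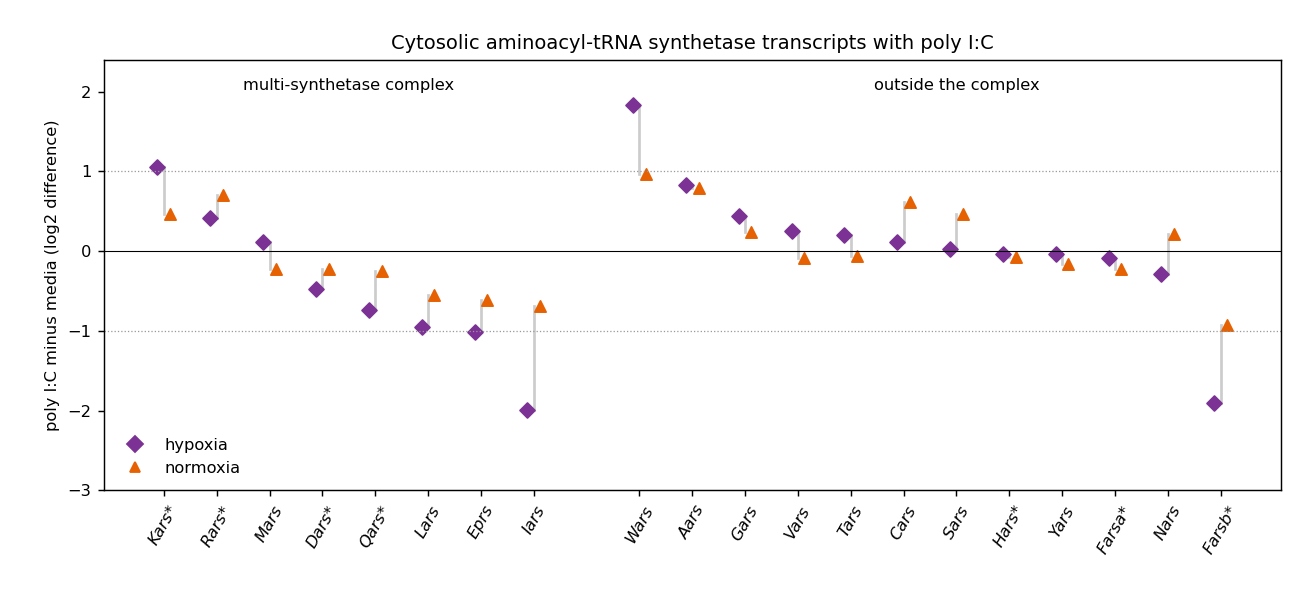
Poly I:C minus media (y axis, log2 difference) for 20 cytosolic synthetase genes, in hypoxia (diamonds) and normoxia (triangles), split by whether the protein sits in the multi-synthetase complex; asterisks mark genes outside the 35. Wars lies highest at 1.83 and 0.97, and Iars is the lowest in hypoxia at -1.996 and Farsb in normoxia at -0.93, while Kars and Rars of the complex lie above 0.

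Companion genes of the pathway extended this picture. Of 10 other cytosolic synthetase and scaffold genes 2 passed the floor, Rars and Qars, and neither was 2-fold apart. Rars, which belongs to the complex, read 99.4 and 157 with poly I:C in hypoxia and normoxia, against 74.8 and 96.8 in media, so the complex did not move together. Farsb, outside the complex and chosen after its values were seen, read 9.38 and 33.5 with poly I:C, against 35.1 and 63.6 in media (-1.90 in hypoxia and -0.93 in normoxia). Its hypoxia difference was -1.83 with poly I:C. Also below the floor, Kars of the complex was at 1.06 for poly I:C in hypoxia, from 11.2 in media to 23.2. The dim scaffold genes Aimp2 and Eef1e1 were at 1.02 and -1.10 for hypoxia in media, and at 0.51 and -1.47 with poly I:C. None of the 17 mitochondrial synthetase genes passed the floor, and the brightest reading among them was 24.8.

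Of 7 measured genes for eIF2, its kinases and its phosphatase subunits 2 passed the floor. Eif2ak2, which encodes the double-stranded RNA sensor kinase PKR and is itself interferon-induced, read 145 in hypoxia with poly I:C, 95.1 in normoxia with poly I:C, 17.8 in hypoxia in media and 33.6 in normoxia in media. It was higher with poly I:C by 3.03 in hypoxia and 1.499 in normoxia, and its difference of differences was 1.53. Eif2s1, the eIF2 subunit that PKR phosphorylates, was not 2-fold apart, at 68.7 to 128.

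Of 14 other amino acid transporters 5 passed the floor. Slc7a8, the CD98 light chain LAT2, was higher with poly I:C at both oxygen levels, at 367 and 422 against 95.5 and 105 in media (1.94 in hypoxia and 2.00 in normoxia). Slc7a2, a cationic amino acid transporter, read 583 in hypoxia with poly I:C, 540.0 in normoxia with poly I:C, 832 in hypoxia in media and 82.3 in normoxia in media, so any treatment put it far above the untreated array. Slc38a2, an ATF4-linked neutral amino acid transporter, read 45.4 and 93.9 with poly I:C in hypoxia and normoxia, against 110.5 and 139 in media, and was lower than media in hypoxia (-1.28). Slc43a2, at 61.3 and 44.9 against 109 and 104, was lower with poly I:C in normoxia (-1.21), with -0.83 in hypoxia. Slc7a11, the cystine transporter light chain, was lower in hypoxia with poly I:C (-1.02) and at -0.92 in media.

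Among 17 other folate and amino acid synthesis genes 3 passed. Glul, glutamine synthetase, was lower with poly I:C, at 56.1 in hypoxia and 39.4 in normoxia against 123 and 117 in media (-1.13 in hypoxia and -1.57 in normoxia). Got1 stayed within 2-fold. Of 11 further genes linked to ATF4 or CHOP, Sqstm1 and Eif4ebp1 passed. Eif4ebp1, a repressor of cap-dependent translation and an ATF4 target, was higher in hypoxia, at 81.9 against 30.5 with poly I:C (1.42) and 55.0 against 17.5 in media (1.65), and Sqstm1 was at 0.73 or less in every comparison.

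Set against the promoter search, the 10 members with a C/EBP-ATF match had a median poly I:C difference of 0.33 in hypoxia and 0.34 in normoxia, and ranged from -1.996 for Iars to 3.24 for Nupr1 in hypoxia. The 18 members with a window and no match had medians of -0.01 and 0.21. For poly I:C in hypoxia 3 of the 10 with a match were past 2-fold upward and 1 downward. Of the 18 without a match 3 were upward and 1 downward, the same counts from a larger group. The shares of all genes were 3.47% and 3.02% without a floor, and 9.87% and 8.10% of those at 16 or more. Members with the octamer thus included those with the highest and the lowest poly I:C differences in hypoxia.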

How the data were processed

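RNA of 4 cultures was read on 4 arrays, 1 for each condition. The authors normalized the arrays by RMA, per the labels' design text, and the submitters' processing notes also name Affymetrix Expression Console. Its version, and the build of the probe annotation: not given in the sources used here. The deposited values are linear intensities of 28998 probe sets, and 0 values differed between the 2 deposited tables. From these, log2 differences were computed with Python 3.11.15, pandas 2.3.3 and numpy 2.4.6. Probe sets were named through RefSeq accessions (18698), current symbols (2207) and synonyms (1750) of assembly GRCm38.p6, or kept the file's symbol (2269). The brightest probe set stood for a gene. A gene counted when any array reached 64, and a call needed 2-fold.

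With 1 array a condition no test was run, and no pairing exists. The 35 members and the gene lists were chosen with earlier results of these data known. Named genes are all members and, of each list, up to 4 genes above the floor with the largest differences in each comparison. The code that makes the calls was checked on simulated data, which gives no error rate for these arrays. Alternatives were no floor, a floor of 16, a 3-fold threshold, cyclic loess (limma 3.58.1 in R 4.3.3), centring on 7 reference genes, averaging probe sets and an offset of 16 before log2. Promoter sequences are from RefSeq. One companion gene and the promoter matches of 1 member are not reported here.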

Additional observations from a re-analysis of the deposited data

Results flagged for a closer look

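Ddit4 and Nupr1 had effects of opposite sign in the 2 settings of 1 contrast, with 1 of the effects past 2-fold. The poly I:C difference of Ddit4 was 1.82 in hypoxia and -0.50 in normoxia, a difference of differences of 2.31. Its normoxic readings, 5.34 with poly I:C and 7.52 in media, were near background. The hypoxia difference of Nupr1 was 1.34 with poly I:C and -0.46 in media, a difference of differences of 1.80, and its media readings of 9.84 in hypoxia and 13.5 in normoxia were dim. Each value rests on 1 array per condition, so neither difference was tested.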

How the results depend on the processing

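No call of a member reversed its direction under any alternative run. Counts of members past 2-fold moved by more than 1.5 times as follows. Counts are of the 14 members above the floor unless stated, with the share of all genes under the same setting in brackets. At a 3-fold threshold 1 was higher and 0 lower with poly I:C in normoxia (8.99% and 1.84%). For poly I:C in hypoxia 0 were lower (2.98%), and the hypoxia effect under poly I:C had 1 higher and 0 lower (1.14% and 0.74%). With an offset of 16 before log2, which damps dim genes, 1 was higher and 0 lower with poly I:C in normoxia (12.3% and 4.16%). At low oxygen that offset left 2 higher and 0 lower for poly I:C (14.03% and 5.56%). It left 0 lower for the hypoxia effect, both in media (3.13%) and under poly I:C (1.58%). Centred on 7 reference genes, poly I:C gave 0 lower in normoxia (4.42%) and 7 higher and 0 lower in hypoxia (29.9% and 2.76%). Hypoxia then gave 2 lower in media (14.1%) and 0 under poly I:C (2.62%), and the difference of differences was positive for 3 (13.1%). Cyclic loess left 1 lower with poly I:C in hypoxia (6.67%). Counts without a floor are of 35 members, and those at the floor of 16, chosen after seeing the data, are of 26. Where both settings gave the same count, the share without a floor stands first. Both gave 7 higher for poly I:C in hypoxia (3.47% and 9.87%). For hypoxia, 3 were higher in media (1.46% and 3.74%) and 4 with poly I:C (1.19% and 3.004%). With poly I:C 4 were lower without a floor (1.22%) and 3 at 16 (3.21%). The difference of differences was positive for 2 (2.15% and 4.47%) and negative for 1 (1.28% and 2.42%).

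Scaling moved the median of all genes above the floor, by 0.18 and 0.17 under loess for poly I:C in normoxia and hypoxia. Reference centring moved it by 0.19 and 0.61 for poly I:C in normoxia and hypoxia, by -0.30 and 0.11 for hypoxia in media and with poly I:C, and by 0.42 for the difference of differences, whose member median became 0.10 in place of -0.31. Centring adds a constant to every gene of a comparison, so the gap between the member median and that of all genes cannot move with it. Counts at 2-fold can, and for poly I:C in hypoxia 4 of 14 members higher against 16.5% of genes became 7 of 14 against 29.9%. No paired analysis was possible because each condition has 1 array, and for the same reason no replicate could be left out. Signal near background limits the 6 members under 10 on every array. It also limits each ratio formed with a reading under 10, among them ratios of Ddit3, Ddit4, Trib3, Sesn2, Nupr1 and Asns.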
